A study of Mus musculus with 18 samples.

Results

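Heterotrimeric G proteins carry the signal of membrane receptors to enzymes and channels inside the cell. The alpha subunit binds the guanine nucleotide and its family sets the route: Gq and G11 activate phospholipase C beta, G12 and G13 activate dedicated guanine nucleotide exchange factors, and Gi and Go lower cyclic AMP and, through the released beta-gamma dimer, open potassium channels and close calcium channels. G protein-coupled receptor kinases phosphorylate active receptors, which then bind arrestins and stop coupling. In neurons of the dentate gyrus the serotonin 1A receptor, muscarinic and metabotropic glutamate receptors work through these proteins, and Go is the main alpha subunit of neuronal membranes.

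The genes examined were 10 of this machinery, 7 alpha subunit genes (Gnaq, Gna11, Gna12, Gna13, Gnai1, Gnai2 and Gnao1) and 3 kinase genes (Grk4, Grk5 and Grk6), taken by their symbols. They were chosen with earlier results of these data known. All 10 were among the 34620 genes with counts, and all 10 were among the 17421 genes that passed the filter on low counts. RNA came from the microdissected ventral dentate granule cell layer of adult Swiss Webster males aged 8 to 12 weeks, sequenced in 6 libraries, 2 per group. The mice of every group carried the wild-type serotonin 1A receptor gene and differed in ancestry. WT mice had a WT mother and a WT grandmother. F1 mice had a 5HT1A-/+ mother and a 5HT1A-/+ grandmother, and came from crosses in which both parents were heterozygous (H). F2 mice had a WT mother, herself an F1 female, a 5HT1A-/+ grandmother and a WT father. The question of the comparisons was whether expression in adult granule cells varied with the receptor deficit of the mother or the grandmother. The strain is outbred, the mutation was made on 129SvEv and backcrossed, and each group drew on several litters, but how many animals went into a library is not given in the sources used here, so that p-values measure the spread between libraries and nothing wider.

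Library totals on genes ran from 26358165 to 33727936 reads. All 5 granule neuron markers (Prox1, Calb1, C1ql2, Dsp and Neurod1) were detected in every library, with a summed level of 837.7 and 863.8 CPM in WT (the normalised read count, scaled to the library total on genes with TMM factors), 741.8 and 879.4 in F1, and 1040 and 973.5 in F2, and none of them passed the test in F1 or F2. Other cell types were present too, and some of their markers were called higher. The summed level of 7 astrocyte markers was 893.2 to 977.1 CPM in WT, 1034 to 1373 in F1 and 1200 to 1513 in F2, and that of 8 oligodendrocyte markers was 1098 to 1994, 2239 to 2975 and 1534 to 2897. Of the astrocyte markers 1 was called higher in F1 and 3 in F2, and of the oligodendrocyte markers 3 and 2. The 9 microglial markers summed to 137 to 137.6 CPM in WT, 164.2 to 187.3 in F1 and 181 to 209.8 in F2, with 0 called in F1 and 5 in F2. The 3 oligodendrocyte precursor markers (45.8 to 52.6 CPM in WT, 74.7 to 84.5 in F1 and 75.1 to 78.0 in F2) had 2 and 1 called higher, and the 7 endothelial markers (106.1 to 116.8, 120.6 to 142.6 and 140.3 to 147.8 CPM) 1 and 1. The 7 RNAs retained in the nucleus, Malat1 and Meg3 among them, summed to 8005 to 8282 CPM in WT, 3224 to 4088 in F1 and 3245 to 3611 in F2. No marker of any of these lists was at 0 in all libraries. In such bulk samples fewer cells of a type and less RNA per cell cannot be told apart.

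The last 30 coding bases of the 7 alpha genes are shown because they encode the tail that the receptor contacts and by which the families are told apart. They were read from the mm9 genome along the gene's strand, end with the stop codon and stand in the order Gq/11, G12/13 and Gi/o. Capitals mark the codon 4 places before the stop, a cysteine codon (TGT or TGC) in the Gi/o genes, whose product is the residue modified by pertussis toxin.
Gnaq: ctgaacctgaaggagTACaatctggtctaa
Gna11: ctgaacctgaaggagTACaacctggtgtga
Gna12: gagaacctgaaagacATCatgctgcagtga
Gna13: gacaacctgaagcagCTCatgctgcagtga
Gnai1: aataacctaaaagacTGTggtctcttctaa
Gnai2: aacaacctgaaggacTGTggcctcttctga
Gnao1: aacaatctccggggcTGCggcttgtactga

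Within families, Gnaq and Gna11 had the same base at 27 of the 30 positions, Gna12 and Gna13 at 25, and Gnai1 and Gnai2 at 25, while Gnao1 shared 21 with Gnai2 and 17 with Gnai1. Gnaq and Gnao1 shared 13. The stretches lie on chr19:16457855-16457884 (plus strand) for Gnaq, chr10:80993540-80993569 (minus) for Gna11, chr5:141236503-141236532 (minus) for Gna12, chr11:109257771-109257800 (plus) for Gna13, chr5:17772837-17772866 (minus) for Gnai1, chr9:107517966-107517995 (minus) for Gnai2 and chr8:96490926-96490955 (plus) for Gnao1. Few reads within exons of the alpha subunits can have been lost to identical copies. Copies with mismatches and reads across exon junctions were not examined. Of all windows of the read length, 50 bases, in the annotated exons, 99.3% of those of Gnaq, 99.4% of those of Gna13 and 100% of those of the other 5 occurred once in the genome. In the kinases the share was 80% for Grk4, 90.9% for Grk5 and 96% for Grk6, and reads from the remaining windows are missing from the counts. On the opposite strand Gna13 shared 151 exon bases with Gm11696 and Gnao1 shared 164 with Gm16615, and reads lying wholly within these stretches cannot be told apart without strand. The other 8 genes shared no exon base with another gene.

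The alpha subunits were abundant and the kinases, apart from Grk6, were not. Per kilobase of annotated exon, a scale that allows genes to be compared, Gnao1 stood first in WT at 74.8 and 76.7 CPM per kb in the 2 libraries, and Gnai2 followed at 59.6 and 62.2 CPM per kb. Gnai1 had 39.2 and 42.5, Gna11 had 30.3 and 27.8, and Gnaq had 27.3 and 27.1 CPM per kb. These 5 levels kept their order in both WT libraries. Grk6 had 20.3 and 17.9 CPM per kb in WT, and Gna12 had 15.4 and 15.8. Gna13 was lower, at 5.02 and 4.8 CPM per kb, and Grk4 and Grk5 came last at 2.56 and 2.94 and at 1.74 and 1.35. The RNA for the alpha subunit of Go was thus present at a mean of 75.8 CPM per kb in WT, against 2.75 for Grk4.

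Neighbours in that order changed places between the groups. Gnao1 lay above Gnai2 in each WT and F1 library, with a Gnao1 to Gnai2 ratio of 1.26 and 1.23 in WT and 1.30 and 1.16 in F1, whereas in F2 the ratio was 0.912 and 1.01 and the libraries of both genes overlapped. Gna11 lay above Gnaq in both WT libraries, but in F1 and in F2 their values overlapped. Grk6 lay above Gna12 in both WT libraries and below it in both F1 libraries (19.9 and 21.0 against 23.0 and 22.7 CPM per kb), and in F2 they overlapped. Grk4 lay above Grk5 in WT, overlapped it in F1 and lay below it in F2, where Grk4 had 1.45 and 1.44 CPM per kb and Grk5 2.11 and 2.03. Summed over the 7 alpha genes the level was 251.6 and 257 CPM per kb in WT, 321.8 and 312 in F1, and 294.4 and 307.8 in F2, so that the groups with an H ancestor did not overlap WT. The sum over the 3 kinases was 24.6 and 22.2 CPM per kb in WT, 23.5 and 24.9 in F1, and 22.9 and 21.7 in F2, with overlap. These sums, ratios and orders are descriptions and were not tested.

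**Figure D1:**
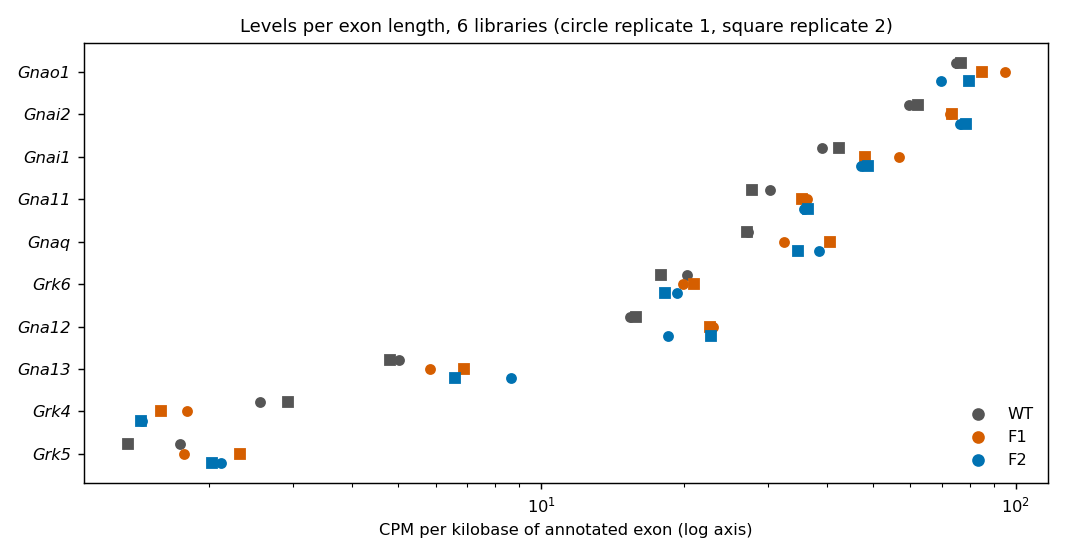
Level of each gene in CPM per kilobase of annotated exon (log axis), with grey, orange and blue points for the WT, F1 and F2 libraries, circles for replicate 1 and squares for replicate 2. Gnao1 spans 69.6 to 94.7 and Grk5 1.35 to 2.32 CPM per kb, and the Grk4 points of F1 and F2 lie to the left of those of WT.

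Of the 10 genes, 4 passed the test against WT in F1, in F2 or in both. Gnaq was higher in F1 and in F2, Gna12 was higher in F1, Gna13 was higher in F2, and Grk4 was lower in F1 and in F2. A gene was called at q under 0.01 (edgeR's exact test, Benjamini-Hochberg adjusted over the 17421 genes). In F1, 2 of the 10 genes were called higher, where 3.77% of all genes were, and 1 was called lower, where 8.54% of all genes were. In F2 these were again 2 higher, against 3.86% of all genes, and 1 lower, against 8.1% of all genes. F1 and F2 were compared with the same WT libraries, so that their calls do not support each other. From these data the paper had already named Gnaq, Gna12 and Grk4 among genes differentially expressed in both F1 and F2. The counts among the 10 are therefore not independent of the choice of genes. The median log2 fold change of the 10 genes was 0.33 in F1 and 0.33 in F2, beside 0.01 and -0.00 over all genes tested. The threshold mattered: at q under 0.05, 5 of the 10 genes passed in F1 against 20.8% of all genes, and 6 in F2 against 20.7%. By edgeR's quasi-likelihood test at q under 0.01 only Gna12 was called in F1, where 5.91% of all genes were, and only Grk4 in F2, where 5.72% were.

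**Figure D2:**
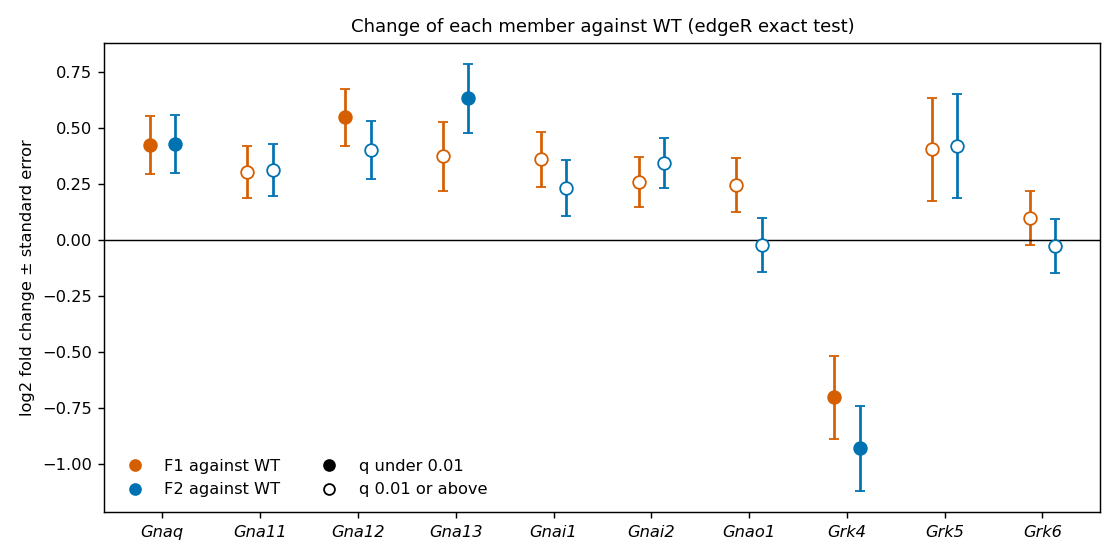
Log2 fold change against WT of each gene (points, F1 orange and F2 blue) with its standard error (bars), from edgeR's exact test. Filled points have q under 0.01; Gnaq and Grk4 are filled in both groups, Gna12 in F1 and Gna13 in F2.

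Gnaq (chr19:16207321-16461953, plus strand), the alpha subunit that joins many serotonin, muscarinic and glutamate receptors to phospholipase C, had 169 and 168 CPM in the WT libraries, 201 and 251 in F1, and 238 and 215 in F2. All 4 libraries of F1 and F2 lay above both WT libraries, which differed by far less than the F1 pair. The means were 168 ± 0.699 CPM in WT, 226 ± 35.9 in F1 and 226 ± 16.2 in F2 (SD, n = 2). The log2 fold change was 0.43 (SE 0.131, q = 0.00973 by the exact test in edgeR) in F1 and 0.43 (SE 0.131, q = 0.00929) in F2. Both q values lay just under the threshold, and of 20 alternative analyses 7 called Gnaq in F1 and 9 in F2. Without F1 replicate 2 the log2 fold change in F1 was 0.26 (edgeR q = 0.228), and without F2 replicate 1 that in F2 was 0.36 (q = 0.190, with 0.0173 in F1). The calls were also lost in F1 and F2, at log2 fold changes of 0.43 to 0.51, without a WT library or without F2 replicate 2. Without WT replicate 1 the q values were 0.0801 and 0.0840 by edgeR, without WT replicate 2 they were 0.0760 and 0.0678, and without F2 replicate 2 they were 0.0153 and 0.0270. The astrocyte marker sum stood, library by library, at 893.2 and 977.1 CPM in WT, 1034 and 1373 in F1, and 1513 and 1200 in F2, and so was higher in F1 replicate 2 and F2 replicate 1, as Gnaq was; its part in the result was not tested.

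Gna11 (chr10:80991469-81007935, minus strand) encodes the close relative that shares Gq's receptors and effector. It had 124 and 114 CPM in WT, 149 and 145 in F1, and 146 and 150 in F2. Both F1 and both F2 libraries lay above both WT libraries, while F1 and F2 overlapped each other. Yet the log2 fold changes of 0.30 (SE 0.115, edgeR q = 0.0408) and 0.31 (SE 0.115, q = 0.0346) did not pass at 0.01. With correction for GC content and exon length Gna11 was called in F1 and F2 (edgeR q = 0.000756 and 0.00048). Per kilobase, Gnaq made up 47.4% and 49.4% of the summed Gnaq and Gna11 level in WT, 47.2% and 53.4% in F1, and 51.8% and 48.8% in F2. On this scale Gnaq was thus the lower of the pair in both WT libraries, and in F1 and F2 the order differed between replicates. In CPM, without division by exon length, Gnaq lay above Gna11 in every library. The order thus depends on the annotated exon length, 6185 bases for Gnaq and 4097 for Gna11.

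Gna12 (chr5:141234362-141306385, minus strand), which relays receptor signals to guanine nucleotide exchange factors, gave the largest rise in F1 among the 10 genes. It had 52.7 and 54.0 CPM in WT, 78.7 and 77.4 in F1, and 63.1 and 77.9 in F2. F1 was 46.3% higher than WT, a log2 fold change of 0.55 (SE 0.128, edgeR q = 0.000358), and 18 of the 20 alternatives kept the call. It was lost without WT replicate 1 (edgeR q = 0.0189) and with a replicate block in the quasi-likelihood test (q = 0.0128). In F2 the replicates stood apart and the log2 fold change was 0.40 (SE 0.129, edgeR q = 0.0137). It was 0.25 (edgeR q = 0.314) without F2 replicate 2 and 0.55 (q = 0.00747) without F2 replicate 1, and 6 of the 20 alternatives called Gna12 in F2.

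Gna13 (chr11:109224145-109262683, plus strand), the second subunit of that family, had 32.2 and 30.8 CPM in WT, 37.6 and 44.2 in F1, and 55.6 and 42.2 in F2. Both F1 and F2 lay above WT in every library. The log2 fold change was 0.63 (SE 0.153, edgeR q = 0.000639) in F2 and 0.38 (SE 0.154, q = 0.0640) in F1. F2 replicate 1 carried much of the F2 value: without it the log2 fold change was 0.43 (edgeR q = 0.132), and q was 0.0151 without WT replicate 1, 0.0213 without WT replicate 2 and 0.0119 by the quasi-likelihood test. That library had the lower Gna12 and the higher Gna13 level of the F2 pair, and the Gna12 to Gna13 ratio per kilobase was 2.13 in it and 3.47 in F2 replicate 2, with 3.07 and 3.30 in WT and 3.94 and 3.29 in F1. It was also the F2 library with the higher astrocyte and microglial and the lower oligodendrocyte marker sum (1513 against 1200, 209.8 against 181, and 1534 against 2897 CPM); the part of these in the Gna12 and Gna13 values was not tested.

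The Gi/o genes, through which the serotonin 1A receptor couples, had no call by edgeR's exact test in F1 or F2. Gnai1 (chr5:17770953-17866231, minus strand) had 125 and 136 CPM in WT, 182 and 153 in F1, and 151 and 156 in F2, with log2 fold changes of 0.36 (SE 0.123, edgeR q = 0.0223) and 0.23 (SE 0.123, q = 0.175). Without F1 replicate 2 it was called in F1, at 0.49 (edgeR q = 0.00728). Gnai2 (chr9:107516461-107537673, minus strand), the form widely expressed outside neurons as well, had 130 and 136 CPM in WT, 159 and 160 in F1, and 167 and 172 in F2. Its replicates lay close together and its groups did not overlap, at log2 fold changes of 0.26 (SE 0.112, edgeR q = 0.0789) in F1 and 0.35 (SE 0.112, q = 0.0146) in F2. Of the 20 alternatives 5 called Gnai2 in F2, among them DESeq2 (q = 0.00768) and the correction for GC content and exon length (edgeR q = 0.000502).

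Gnao1 (chr8:96333866-96493288, plus strand), the neuronal Go subunit and the highest of the 10 in CPM, had 508 and 520 CPM in WT, 643 and 576 in F1, and 472 and 541 in F2. Per kilobase its mean stood first in WT and F1, while in F2 that of Gnai2 was higher (77.46 against 74.65 CPM per kb). F1 lay above WT in both libraries, and the F2 libraries lay on either side of WT. The log2 fold change was 0.25 (SE 0.121, edgeR q = 0.138) in F1 and -0.02 (q = 0.942) in F2. As a share of the summed level of the 7 alpha genes per kilobase, Gnao1 made up 29.7% and 29.8% in WT, 29.4% and 27.2% in F1, and 23.6% and 25.9% in F2, with both F2 libraries below the other 4.

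Grk4 (chr5:35003028-35097954, plus strand), a receptor kinase known mainly from testis and from the regulation of dopamine receptors in the kidney, was the only gene of the 10 called lower. It had 12.4 and 14.2 CPM in WT, 8.68 and 7.64 in F1, and 6.99 and 6.94 in F2, from 187 to 421 reads per library. Every F1 and F2 library lay below both WT libraries, and both F2 libraries lay below both F1 libraries. The means were 13.3 ± 1.28 CPM in WT, 8.16 ± 0.735 in F1 and 6.97 ± 0.0348 in F2 (SD, n = 2). Grk4 fell by 38.5% in F1, at a log2 fold change of -0.70 (SE 0.186, edgeR q = 0.00204), and fell by 47.5% in F2, at -0.93 (SE 0.188, q = 3.1e-05). The F2 call was kept in 19 of 20 alternatives (q = 0.0104 without F2 replicate 1), and the F1 call in 15, being lost without WT replicate 1 (q = 0.0118), WT replicate 2 (q = 0.0783) or F1 replicate 2 (q = 0.0544) and by the quasi-likelihood tests. The nuclear-retained RNAs stood at 8282 and 8005 CPM in WT, 4088 and 3224 in F1, and 3245 and 3611 in F2, with 6 of the 7 called lower in F1 and 7 in F2, and the share of uniquely aligned reads that HTSeq gave to no gene was 17.7% and 20.7% in WT, 13.8% and 12.2% in F1, and 13.9% and 17.4% in F2. Their part in the fall of Grk4 was not tested.

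Grk5 and Grk6, kinases of the same subfamily that act on many receptors, were not called. Grk5 (chr19:60965652-61168456, plus strand) had 5.50 and 4.26 CPM in WT, 5.61 and 7.35 in F1, and 6.69 and 6.42 in F2, from 121 to 227 reads per library. Its log2 fold changes of 0.41 (SE 0.232, edgeR q = 0.210) and 0.42 (SE 0.232, q = 0.199) were about as large as those of Gnaq, but the standard error was larger. Single libraries moved them: without F1 replicate 2 the value in F1 was 0.20, without WT replicate 2 the values were 0.25 and 0.26, and without WT replicate 1 they were 0.61 and 0.63. Grk6 (chr13:55546695-55562286, plus strand) had 65.8 and 58.0 CPM in WT, 64.7 and 68.0 in F1, and 62.7 and 59.0 in F2, and its groups overlapped, with log2 fold changes of 0.10 (edgeR q = 0.622) and -0.03 (q = 0.929). Of the summed level of the 3 kinases per kilobase, Grk6 made up 80.7% to 84.8% across the libraries. Grk4 made up 10.4% and 13.2% in WT, 7.64% and 6.36% in F1, and 6.32% and 6.63% in F2.

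**Figure D3:**
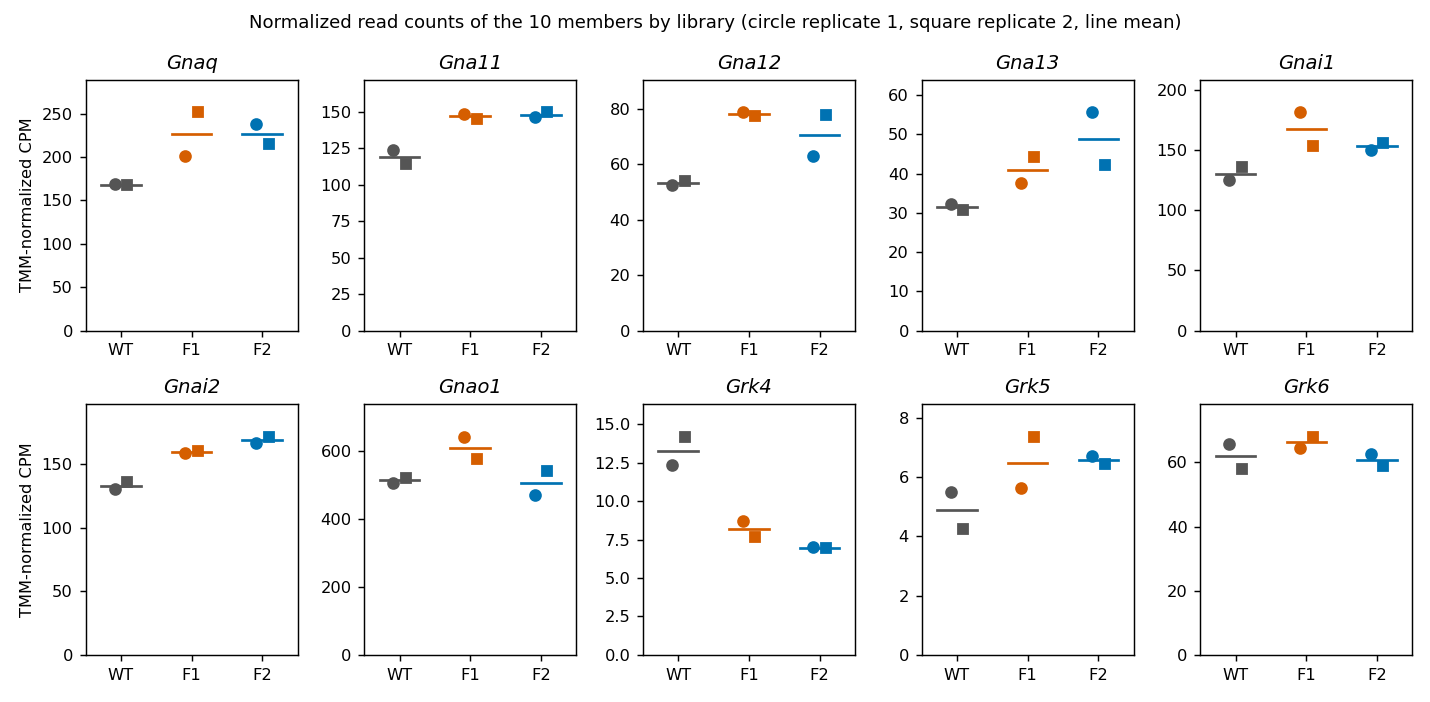
TMM-normalized CPM of each gene in each library, from a zero baseline, with circles for replicate 1, squares for replicate 2 and lines for the group means. Grk4 falls from a mean of 13.3 CPM in WT to 8.16 in F1 and 6.97 in F2, Gnaq stands at 226 in both F1 and F2, and the Grk6 groups overlap.

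By position of the libraries alone, 8 of the 10 genes had both F1 libraries above both WT libraries, where 29.8% of all genes did, and 1 had both below, where 30.6% did. In F2, 7 genes lay wholly above WT, against 31% of all genes, and 1 wholly below, against 32%. The 6 genes above WT in every F1 and F2 library other than Gnaq were Gna11, Gna12, Gna13, Gnai1, Gnai2 and Grk5. Gnao1 joined them in F1, Grk6 in neither group, and Grk4 was below WT in every such library.

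F2 was also set against F1. These groups differ in generation and also in parents. Both parents of F1 mice were heterozygous, while the mother and father of F2 mice were WT. The parts of generation, mother and father cannot be told apart here. None of the 10 genes differed by edgeR's exact test, with 0.74% of all genes called, nor by the quasi-likelihood test, the likelihood-ratio test or DESeq2. A single gene of the 10, Gnao1, had an unadjusted p under 0.05 by the exact test, where 1506 of the 17421 genes did. By the quasi-likelihood test 1 of the 10 did, where 1570 of the 17421 did. The log2 fold change of Gnao1 was -0.27 (95% interval -0.50 to -0.03, edgeR q = 0.452), and -0.17 without F2 replicate 1. For Gnaq the log2 difference was 0.00 (95% interval -0.25 to 0.26) and for Gna11 0.01 (-0.21 to 0.23). Gna12 differed by -0.15 (-0.40 to 0.10) and Gna13 by 0.26 (-0.04 to 0.56), so that the call of the first in F1 and of the second in F2 was not a tested difference between those groups. For Grk4 it was -0.23 (-0.61 to 0.15).

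Other genes of the pathway were taken from 8 fixed lists, of which 80 of 88 genes were tested. Among these 80, 4 were called higher and 8 lower in F1, where 3.77% and 8.54% of all genes were, and 6 higher and 6 lower in F2, where 3.86% and 8.1% of all genes were. These counts lie close to those shares, except for the 6 higher in F2, which lie above theirs. No list was tested as a whole, and the values below describe single genes and not the lists. Of the 80 genes, 2 were called higher in both groups and 6 were called lower in both. No share over all genes was set beside these 2 counts, and both groups were compared with the same WT libraries. Over all genes, lower calls also outnumbered higher ones, 1487 to 657 in F1 and 1411 to 673 in F2. The counts in both groups are therefore not read as a result about the pathway. The median log2 fold change of the 80 was 0.16 in F1 and 0.14 in F2. Without WT replicate 1, or without F2 replicate 1, 5 genes were called in both, and by the quasi-likelihood test 6 were, without Arhgef25 (q = 0.0259 in F1) and Adcy6 (q = 0.0116 in F2).

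For the partners of the alpha subunits, the counts within a list are small. Over all genes 3.77% were called higher and 8.54% lower in F1, and 3.86% and 8.1% in F2. Of 15 beta and gamma genes 2 were called higher in F1 and 3 in F2, and Gng12, a gamma subunit, in both. Gng12 had 27.3 and 30.5 CPM in WT, 41.6 and 45.1 in F1, and 44.5 and 41.2 in F2, at log2 fold changes of 0.58 (SE 0.132, edgeR q = 0.00019) and 0.57 (SE 0.132, q = 0.00034). None of the 6 other alpha genes was called. The best counted of them, Gnas, which encodes the subunit that stimulates adenylyl cyclase, had 347 and 324 CPM in WT, 471 and 425 in F1, and 323 and 398 in F2 (log2 fold changes 0.42, edgeR q = 0.0117, and 0.10, q = 0.635). As with Gnao1, both F1 libraries of Gnas lay above WT and F2 overlapped WT. None of the 8 chaperones and modulators was called either; Gprin1, a neurite protein that binds Go, had 210 and 209 CPM in WT, 227 and 249 in F1, and 269 and 244 in F2.

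Genes that end the signal moved in both directions. Of 17 RGS genes, which speed the hydrolysis of GTP by alpha subunits, 2 were called higher and 1 lower in F1, and 1 higher and 1 lower in F2. The shares over all genes were 3.77% higher and 8.54% lower in F1, and 3.86% and 8.1% in F2. Rgs4, which acts on Gq and Gi/o, had 96.3 and 87.3 CPM in WT, 146 and 150 in F1, and 149 and 147 in F2, a rise of 0.69 (SE 0.116, edgeR q = 1.92e-07) in F1 and of 0.69 (SE 0.116, q = 2.19e-07) in F2 on the log2 scale. Rgs11, which pairs with the Gbeta5 subunit and acts on Go, had 83.2 and 69.1 CPM in WT, 34.7 and 22.1 in F1, and 18.8 and 24.5 in F2, a log2 fold change of -1.42 (SE 0.196, edgeR q = 9.21e-11) and -1.82 (SE 0.197, q = 1.45e-16). Both genes separated WT from the other 4 libraries. From these data the paper had already named Rgs4, and Arrb2 below, among genes differentially expressed in both F1 and F2. Of 7 other receptor kinases and arrestins, 2 were called lower in F1 and 1 in F2, where 8.54% and 8.1% of all genes were. Arrb2, an arrestin that binds receptors phosphorylated by the kinases, had 133 and 104 CPM in WT, 71.2 and 65.2 in F1, and 61.4 and 65.5 in F2, at -0.80 (SE 0.136, edgeR q = 2.77e-07) and -0.90 (SE 0.136, q = 4.88e-09). Arrb2 and Grk4 were both called lower in F1 and F2, so that lying below WT in the same libraries follows from those calls. Of all genes, 30.6% in F1 and 32% in F2 lay below both WT libraries. Arrb1, another arrestin of the list, did not fall. It had 173 and 152 CPM in WT, 174 and 190 in F1, and 194 and 193 in F2, at 0.16 and 0.25, and was not called.

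Among the effectors every gene called in both groups was lower, and over all genes too lower calls outnumbered higher ones in each group. Of the 7 G12/13 effectors, 2 guanine nucleotide exchange factors were lower in both. Arhgef1, which G13 activates, had 151 and 118 CPM in WT, 59.2 and 41.2 in F1, and 46.8 and 53.9 in F2, at log2 fold changes of -1.42 (SE 0.171, edgeR q = 6.53e-14) and -1.42 (SE 0.171, q = 1.1e-13). Akap13, an anchoring protein with exchange activity, had 105 and 91.9 CPM in WT, 58.6 and 42.4 in F1, and 39.2 and 44.8 in F2, at -0.97 (edgeR q = 3.69e-08) and -1.23 (q = 1.01e-12). Gna12 and Gna13 themselves lay above WT in all 4 of these F1 and F2 libraries, while both exchange factors lay below it. Other exchange factors of the list did not fall with them and were not called. Arhgef11 stood at log2 fold changes of 0.24 in F1 and 0.26 in F2, and Arhgef12 at -0.03 and 0.21. Of 7 Gq effectors, Arhgef25, an exchange factor that Gq activates, was lower in both groups (mean 430 CPM in WT, 320 in F1 and 287 in F2, at -0.43, edgeR q = 0.00698, and -0.58, q = 0.000105). No phospholipase C gene of the list was called at 0.01. The paper, however, names Plcb2 and Plcb4 among genes differentially expressed in both F1 and F2. It gives a threshold of 0.01 in its results and 0.05 in its methods, and here both genes had q under 0.05. Plcb4 rose by 0.59 (edgeR q = 0.0142) in F1 and 0.57 (q = 0.0195) in F2. Plcb2, at a mean of 2.10 CPM in WT, stood at -0.96 (edgeR q = 0.0148) and -0.91 (q = 0.0238). Plcb1 stood at 0.26 and 0.17, and Plcb3 at 0.01 and 0.17. Of 13 Gs and Gi/o effectors, 2 were called lower in F1, where 8.54% of all genes were. In F2, 2 were called higher and 1 lower, where 3.86% and 8.1% of all genes were. Adcy6, an adenylyl cyclase that Gi inhibits, was lower in both, with mean levels of 64.6, 39.9 and 43.3 CPM and log2 fold changes of -0.69 (edgeR q = 2.66e-05) and -0.58 (q = 0.000712). A single gene of the 80 differed between F2 and F1, Adcy8, a calcium-stimulated cyclase named here after its values were seen, with mean log2 fold changes of -0.80 (edgeR q = 2.26e-05) in F1 and 0.02 (q = 0.954) in F2, and of 0.83 (q = 0.000145) between them; by the quasi-likelihood test the last had q = 0.0455. The 6 genes lower in both groups were named for that, so that being low where the nuclear-retained RNAs were low follows from the choice. By position alone 30.6% of all genes in F1 and 32% in F2 lay below both WT libraries. The part of the nuclear-retained RNAs in the 6 genes was not tested.

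**Figure D4:**
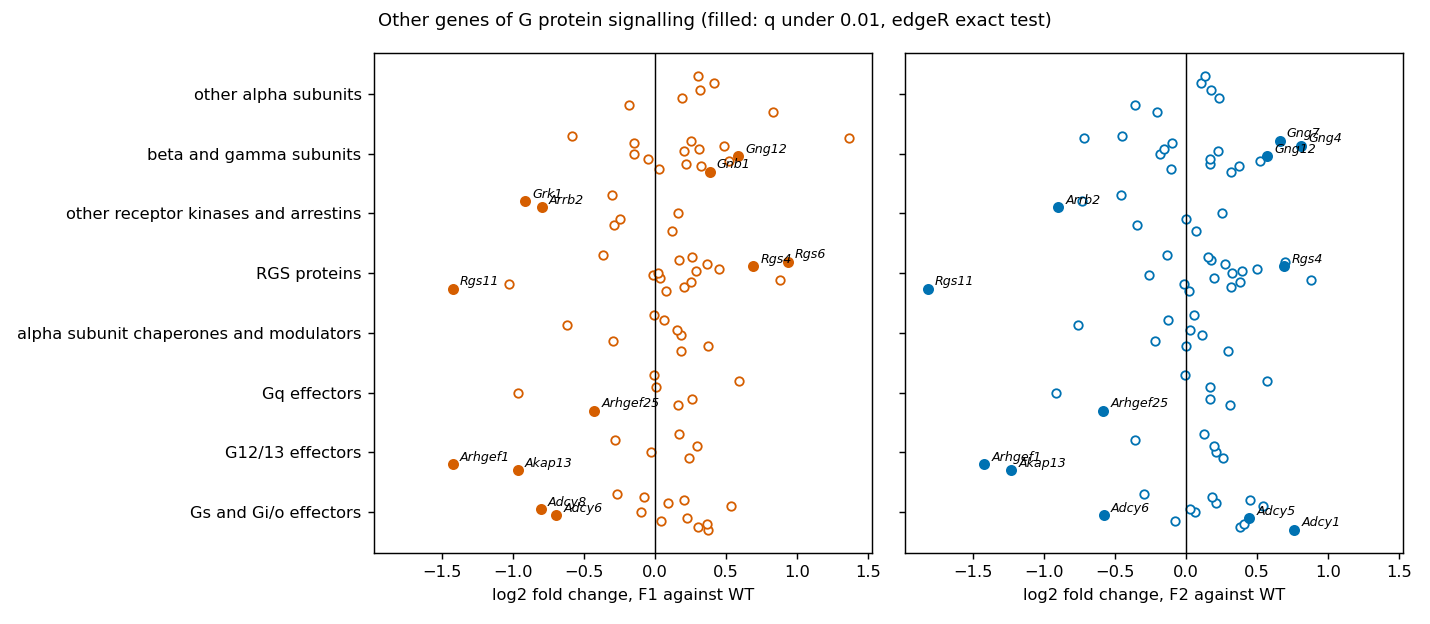
Log2 fold change against WT of the 80 tested genes of the 8 pathway lists, F1 on the left and F2 on the right, each point a gene and filled where q was under 0.01. Rgs11 and Arhgef1 lie farthest to the left among the filled points in both panels, at -1.42 and -1.42 in F1 and -1.82 and -1.42 in F2.

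For the 2 genes called in both groups, the genes with the most similar profile over the 6 libraries were sought among the 13679 genes that averaged 50 counts or more. For Gnaq these were Smcr8 (Pearson r = 0.997 in log2 CPM) and Exoc6 (r = 0.996), and for Grk4 Ppcdc (r = 0.997) and Col4a1 (r = 0.995). The 6 points share 2 libraries per group and the best of so many genes will correlate closely, so that these values are a description.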

How the data were processed

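The 6 RNA-Seq libraries were 2 per group. The authors aligned single-end reads of 50 bases against mm9 using TopHat, limited to known junctions, and deposited raw counts per gene from HTSeq in its strict intersection mode. Reads that aligned to several places, fell in more than 1 gene or reached outside exons are not in the counts. Whether counting used strand is not given in the sources used here. Rows that name no gene were left out of library sizes (reads in no gene made up 12.2% to 20.7% of uniquely aligned reads). The 12 bisulfite samples were not used here.

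In edgeR 4.0.16 (R 4.3.3), filterByExpr removed low counts, TMM set the scale and the exact test compared groups, with common and tagwise dispersion over all groups (common dispersion 0.0113, a coefficient of variation of 10.6%). The Benjamini-Hochberg adjustment over all genes tested gave q. Standard errors and 95% intervals follow from mean counts and tagwise dispersion by the delta method, and SDs are over 2 libraries. Replicates were not duplicates (chi-square per degree of freedom 19.2 to 24.9). The small number of libraries limits the precision. The procedure was tested on simulated data. Exon lengths, positions and sequences were taken from the GENCODE M1 annotation of mm9, with matches for 33294 of 34620 symbols. As alternatives, the quasi-likelihood test and the likelihood-ratio test of edgeR were run, each also blocked by replicate number, together with DESeq2 1.42.0, other scalings, filters and dispersions, an offset for GC content and length, q under 0.05, and 5 of the 6 libraries at a time. Plots were made with matplotlib 3.10.9 in Python 3.11.15.

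The genes and lists were chosen with earlier results of these data known. Named were all 10 genes, pathway genes called in F1 and F2 in the same direction (for a list without such a gene, its best counted gene), the 2 genes most alike to each of the 10 called in both, on log2 CPM with a pseudocount of 0.5, and marker lists as sums. Of 60 marker genes 1 had no match.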

Additional observations from a re-analysis of the deposited data

How the results depend on the processing

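With 2 libraries per group, calls near the threshold depend on the analysis. Against the 3, 3 and 2 genes called in F1, F2 and both, the quasi-likelihood test called 1, 1 and 0, and a threshold of q under 0.05 called 5, 6 and 4, with 14 pathway genes called in both in place of 8. The count in both was 1 with upper quartile scaling, with library size alone, without the filter on low counts, with genes averaging 50 counts or more and with dispersion from the 2 groups compared. With correction for GC content and exon length 6 genes were called in F2 and 4 in both. Leaving out each library in turn gave 0 to 3 genes in F1, 1 to 4 in F2, 0 to 3 in both and 5 to 11 pathway genes in both. Over all genes the calls were 2144 in F1, 2084 in F2 and 129 between them, 1029, 997 and 2 by the quasi-likelihood test, and 988 to 2043, 703 to 2585 and 52 to 223 with a library left out. Of the 10 genes themselves, 0 were called between F2 and F1 under each of these alternatives.

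The replicate numbers did not pair the libraries: deviations by number correlated at -0.00862 for WT with F1, -0.0898 for WT with F2, and -0.23 for F1 with F2. With the replicate number as a block, the quasi-likelihood test called 0, 1 and 0 genes, with 5 pathway genes in both, and 848, 758 and 9 of all genes; the likelihood-ratio test called 1 in both, and with the GC and length correction 5 in F2. A block with crossed F2 numbers, chosen after seeing the data, called 5 in F2, and 233 of all genes between F2 and F1.

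No log2 fold change against WT in F1 changed direction. Directions turned only for values near 0. Gnao1 in F2 stood at 0.0008 without the filter, and at up to 0.0787 (from -0.1166) with a library left out; Grk6 in F2 at 0.0496 with the GC and length correction, 0.0494 with the block added and up to 0.0736 (from -0.1031) with a library left out. Between F2 and F1, Gnaq stood at -0.0242 and -0.0218 under these corrections and at -0.1523 to 0.1773 with a library left out, Gna11 at -0.0076 to 0.0287, Gna12 at -0.3071 to 0.0019 and Grk5 at -0.1671 to 0.2265. The cause was not tested.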
